A study of Mus musculus with 9 samples.

Results

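Melanocyte pigment genes were followed in labial mucosa of mice of 3 strains, labelled Tac111, Tac146 and B6. The 10 genes are Tyr, Tyrp1, Dct, Pmel, Mlana, Slc45a2, Oca2, Mc1r, Mitf and Sox10. They were found by symbol in the deposited expected counts (estimated counts that need not be whole), and all 10 were present among 55342 gene names in each of the 9 libraries. Each strain had 3 libraries, which were Tac111 replicates 1, 2 and 3, Tac146 replicates 2, 3 and 4, and B6 replicates 1, 2 and 3. All the mice were infected before the biopsy was taken, and the sources used here give neither the agent, the time and the age nor the coat colour and alleles of each strain. B6 is the usual short name of C57BL/6, a black inbred strain, and the labels do not expand it or the other names. The labels also name T cells for Tac111 and Tac146 and type 1 innate lymphoid cells (ILC1) for B6, while the tissue given is whole labial mucosa.

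The libraries read as whole mucosa. Krt13, a keratin of the upper layers of oral epithelium, stood at 28006 to 48378 CPM (the count scaled by library size) over the 9 libraries and Acta1, the actin of skeletal muscle, at 4204 to 7990 CPM. The T cell labels went against T cell markers, and markers of ILC1 were mixed. Cd3e, which encodes a T cell receptor subunit, had 0 counts in every Tac111 library, labelled T cells, and stood at 0.132 to 0.215 CPM in Tac146, labelled T cells, and at 0.974 to 1.69 CPM in B6, labelled ILC1. Cd3d and Cd3g also had 0 counts in Tac111 and were highest in B6, with 83 and 231 summed counts. A count of 0 in a Tac111 library allows up to 0.0872 to 0.108 CPM, taking 3 counts as the limit. Trac, of the T cell receptor, stood at 0.0582 to 0.128 CPM in Tac111, 0.0221 to 0.0882 CPM in Tac146 and 0.313 to 0.597 CPM in B6. Ncr1, a receptor of ILC1 and natural killer cells, had 0 counts in Tac111 and stood at 0.332 to 0.463 CPM in Tac146 and 0.167 to 0.452 CPM in B6. Klrb1c, another such receptor, stood at 0 to 0.0582, 0.575 to 0.772 and 0.244 to 0.630 CPM in Tac111, Tac146 and B6. Tbx21, a transcription factor of these cells, stood at 0.542 to 0.705, 0.531 to 1.23 and 0.974 to 1.19 CPM in the same order. The groups are therefore called by strain only. Total expected counts ran from 27192359 to 46456500. On the first principal component of all genes, with 42.3% of the variance, Tac111 libraries stood at -47.1 to -38.8. The B6 and Tac146 libraries stood at 8.38 to 30.8. Tac146 replicate 4 stood apart from the other libraries on the second component (43.9 against -20.5 to 11.5), which held 16.0% of the variance. The labels do not say that libraries came from separate animals, so each p-value sets a difference against the spread of these libraries alone, and that spread may be technical.

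Melanocytes make melanin inside melanosomes and pass these to keratinocytes, mostly those that build the hair shaft, and a few pigment cells also lie in oral epithelium. Tyr, Tyrp1 and Dct encode the related enzymes that turn tyrosine into melanin. Pmel forms the fibrils on which the pigment is laid down, Mlana is a small membrane protein of the melanosome, and Slc45a2 and Oca2 are membrane transporters that set conditions inside it. Mc1r is the receptor through which melanocortin raises black pigment. The transcription factor Mitf drives the enzyme genes, and Sox10 acts above Mitf and is also a gene of Schwann cells and of gland epithelium. Asip, whose protein blocks Mc1r, was not analysed here. RNA levels do not report which coat colour alleles a strain carries, since common alleles of these genes can change the protein and leave its transcript in place.

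The stretch just before the start of Tyr, Tyrp1 and Dct is shown because Mitf is known to act on such promoters through a short element called the M-box, whose core is TCATGTG. The sequences are RefSeq's (GRCm38.p6), the 250 bases upstream of the annotated start, 5′ to 3′ on the strand of the gene. They lie at chr7:87493513-87493762 (minus strand) for Tyr, chr4:80833963-80834212 (plus strand) for Tyrp1 and chr14:118052247-118052496 (minus strand) for Dct. Capitals mark TCATGTG and the shorter CATGTG within it, on either strand.
Tyr: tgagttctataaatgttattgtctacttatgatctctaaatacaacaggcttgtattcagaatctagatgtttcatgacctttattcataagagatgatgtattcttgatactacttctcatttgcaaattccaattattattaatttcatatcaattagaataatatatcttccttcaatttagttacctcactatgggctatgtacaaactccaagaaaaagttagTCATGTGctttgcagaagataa
Tyrp1: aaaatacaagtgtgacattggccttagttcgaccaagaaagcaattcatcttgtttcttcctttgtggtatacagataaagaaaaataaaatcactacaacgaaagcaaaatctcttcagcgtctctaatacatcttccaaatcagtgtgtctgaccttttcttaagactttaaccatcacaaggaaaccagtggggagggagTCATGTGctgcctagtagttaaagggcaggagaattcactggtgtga
Dct: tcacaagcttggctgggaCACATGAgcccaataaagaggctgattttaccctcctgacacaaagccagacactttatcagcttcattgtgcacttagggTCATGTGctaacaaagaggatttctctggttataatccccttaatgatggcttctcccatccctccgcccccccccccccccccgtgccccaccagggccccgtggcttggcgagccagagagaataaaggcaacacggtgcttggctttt

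Windows of 300 bases (250 before to 50 after the start) were searched on both strands for TCATGTG, for CATGTG, which lies within it, and for CACGTG. Of the members, 6 had a window (Dct, Mc1r, Mitf, Oca2, Tyr and Tyrp1). TCATGTG was found for 4 of the 6, which were Dct, Mc1r, Tyr and Tyrp1, and in 4 of the 8 windows of these 6 genes (Mitf has 3 windows), against 3.77% of all 32851 windows. It began 22 bases before the start of Tyr, 47 bases before that of Tyrp1, and 151 and 232 bases before that of Dct, the farther match being on the other strand. CATGTG was found for those 4 and for Oca2, in 5 of the 8 windows, against 14.2% of all windows, and CACGTG in 0 of the 8, against 7.15% of all windows. A match describes the letters of a window and is not a binding site. The M-box was chosen because it is known from such promoters, so its share among the members is not a test.

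Averaged over the 9 libraries, the transcription factors were the most abundant of the 10 genes for their length. Since longer transcripts give more counts, levels of different genes were compared as CPM per kilobase of annotated exons. Mitf averaged 2.14 ± 0.292 CPM per kilobase and Sox10 1.33 ± 0.217 over the 9 libraries (SD, n = 9). Next came Pmel at 1.02 ± 0.681, Dct at 0.748 ± 0.457, Tyrp1 at 0.456 ± 0.309 and Mlana at 0.428 ± 0.321 CPM per kilobase (SD, n = 9). Tyr, the enzyme of the first step, was far lower per kilobase at 0.0707 ± 0.0555, and Slc45a2, Mc1r and Oca2 stood at 0.0489 ± 0.0407, 0.0383 ± 0.0414 and 0.0292 ± 0.0272 CPM per kilobase (SD, n = 9). The length joins all annotated exons of a gene, 7108 bases for Tyr and 1057 for Mlana, and need not be that of the transcript made. In CPM alone Tyr averaged 0.724, 0.516 and 0.268 in Tac111, Tac146 and B6, and Mlana 0.867, 0.297 and 0.192. Neighbours in the order per kilobase differed by less than their spread over libraries, apart from the steps between Mitf and Sox10 and between Mlana and Tyr. That spread does not compare genes within a library. Within every library, Pmel stood above Dct and Dct above Tyrp1 per kilobase. The lead of the transcription factors did not hold in every library. In Tac111 Pmel averaged 1.46 CPM per kilobase, above Sox10 at 1.28. In Tac146 replicate 2 Pmel, at 2.28 CPM per kilobase, was also above Mitf, at 2.06. Slc45a2, Oca2 and Mc1r had too few counts to enter the test, which 7 of the 10 members did.

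**Figure D1:**
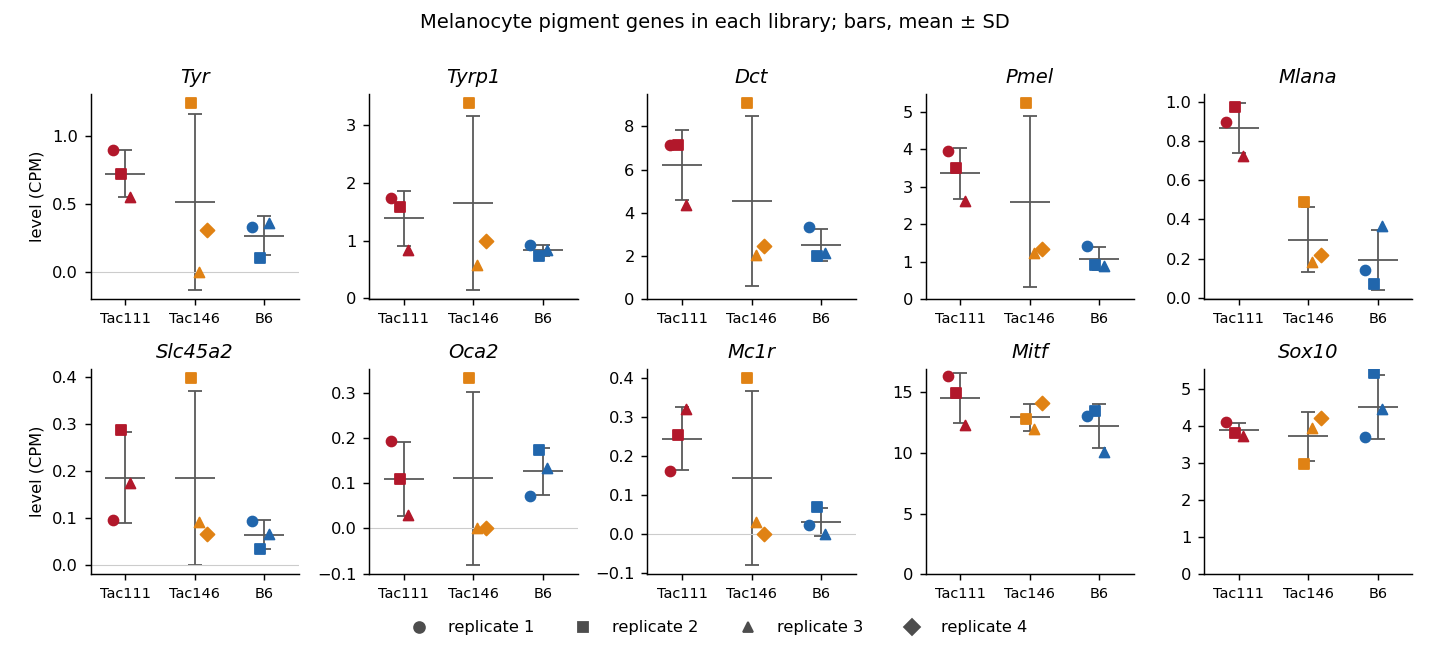
Level of each of the 10 genes in CPM (linear axis) by strain, with 1 point per library, its shape giving the replicate, and bars for the mean ± SD of the 3 libraries. Tac146 replicate 2 has the highest level of all 9 libraries for 7 of the 10 genes, and Mitf and Sox10 vary little.

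Among the pigment enzymes, Dct had the highest level per kilobase. Dct, which encodes dopachrome tautomerase (chromosome 14, 118012790 to 118052244, GRCm38), stood at 7.15, 7.12 and 4.36 CPM in Tac111 replicates 1, 2 and 3, at 9.07, 2.06 and 2.47 CPM in Tac146 replicates 2, 3 and 4, and at 3.34, 2.02 and 2.12 CPM in B6 replicates 1, 2 and 3. All 3 Tac111 libraries lay above all 3 B6 libraries, while the Tac146 libraries held both the highest value and values within the range of B6. Tyrp1, a partner enzyme that also steadies tyrosinase (chromosome 4, 80834123 to 80851719), stood at 1.73, 1.59 and 0.843 CPM in Tac111, 3.38, 0.584 and 0.992 CPM in Tac146, and 0.931, 0.731 and 0.828 CPM in B6, in the same order of replicates. Here Tac111 replicate 3 lay within the range of B6, so those groups overlapped. Tyr, the rate-limiting enzyme (chromosome 7, 87424771 to 87493512), had 28, 20 and 19 counts in Tac111, 56, 0 and 14 in Tac146, and 14, 3 and 11 in B6. The count of 0 in Tac146 replicate 3 allows a level of up to 0.0921 CPM, taking 3 counts as the limit, which covers counting error only.

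The melanosome proteins had the largest fitted fold changes of the 7 tested members between Tac111 and B6. Pmel (chromosome 10, 128704195 to 128720238) stood at 3.94, 3.50 and 2.62 CPM in Tac111, 5.22, 1.23 and 1.34 CPM in Tac146, and 1.43, 0.905 and 0.895 CPM in B6. Mlana (chromosome 19, 29697824 to 29708634) had 28, 27 and 25 counts in Tac111, 22, 6 and 10 in Tac146, and 6, 2 and 11 in B6. Its levels were 0.898, 0.975 and 0.727 CPM in Tac111, 0.487, 0.184 and 0.220 CPM in Tac146, and 0.143, 0.0696 and 0.364 CPM in B6. For both genes every Tac111 library was above every B6 library, and for Mlana every Tac111 library was also above every Tac146 library. Pmel overlaps Cdk2 and Dgka on the opposite strand in the annotation, and whether the counting used strand is not given, so shared reads cannot be told apart.

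The transporters and the melanocortin receptor were near the limit of detection. Slc45a2 (chromosome 15, 11000721 to 11029233) had 3, 8 and 6 counts in Tac111, 18, 3 and 3 in Tac146, and 4, 1 and 2 in B6. Oca2 (chromosome 7, 56239760 to 56536518) had 6, 3 and 1 counts in Tac111, 15, 0 and 0 in Tac146, and 3, 5 and 4 in B6. By level, Tac111 replicate 1 and Tac146 replicate 2 stood above the range of B6 for Oca2, and a count of 0 allows up to 0.0921 and 0.0661 CPM in Tac146 replicates 3 and 4. Mc1r (chromosome 8, 123407107 to 123410744) had 5, 7 and 11 counts in Tac111, 18, 1 and 0 in Tac146, and 1, 2 and 0 in B6. All Tac111 libraries were above all B6 libraries for Mc1r, with a ratio of summed levels of 8.29 (exact 95% counting interval 2.50 to 43.1). That interval covers counting error only, and with no filter on low counts edgeR gave adjusted p = 0.185 for Mc1r, 0.466 for Slc45a2 and 1 for Oca2 between Tac111 and B6. Without that filter 0.988% of all genes were called higher in Tac111 against B6. Gm20388, a protein-coding gene model with 1346 to 2245 counts, overlaps Mc1r on the same strand, so the counts of Mc1r are uncertain.

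The transcription factors varied less between libraries than the pigment genes. Mitf (chromosome 6, 97807052 to 98021349) stood at 16.4, 14.9 and 12.3 CPM in Tac111, 12.8, 11.9 and 14.2 CPM in Tac146, and 13.0, 13.5 and 10.1 CPM in B6. Sox10 (chromosome 15, 79154908 to 79165240) stood at 4.10, 3.83 and 3.75 CPM in Tac111, 2.99, 3.96 and 4.23 CPM in Tac146, and 3.70, 5.43 and 4.47 CPM in B6. Both overlapped between all strains, and Tac146 replicate 2, the highest library for 7 of the 10 genes, had the lowest Sox10 level. The counts are per gene, so the melanocyte form of the Mitf transcript was not separated from forms made in other cells.

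The comparison of Tac111 with B6 asked whether pigment transcripts differed between these strains. Mlana rose in Tac111, and Pmel, Dct, Tyr and Tyrp1 had fitted log2 fold changes above 0 that did not pass the test. The rise of Mlana rested on 80 summed counts in Tac111 and 19 in B6. Mlana averaged 0.867 ± 0.127 CPM in Tac111 and 0.192 ± 0.153 CPM in B6 (SD, n = 3 each), a 4.48-fold difference (log2 fold change 2.16, SE 0.51, adjusted p = 0.0443 by edgeR). The fitted log2 fold change was 1.61 for Pmel (SE 0.52, edgeR adjusted p = 0.123), 1.30 for Dct (SE 0.51, edgeR adjusted p = 0.181), 1.39 for Tyr (SE 0.88, edgeR adjusted p = 0.375) and 0.72 for Tyrp1 (SE 0.58, edgeR adjusted p = 0.476). Mitf had a log2 fold change of 0.25 (SE 0.14, edgeR adjusted p = 0.314) and Sox10 -0.21 (SE 0.18, edgeR adjusted p = 0.506). Thus 1 of the 7 tested members was called higher and 0 lower by edgeR, with 3 at an unadjusted p under 0.05 and 2 called higher by DESeq2, while 3.81% of all 16523 genes tested were called and 1.02% were called higher by edgeR and 2.12% were called higher by DESeq2. The share of all genes at an unadjusted p under 0.05 was not counted. Counts at that level, here and for the lists below, therefore have no background beside them and show no excess. In 4 of the 7 tested members (Tyr, Dct, Pmel and Mlana) all Tac111 libraries lay above all B6 libraries, which held for 13.7% of all genes tested (29.6% in either direction). The median log2 fold change was 1.30 over the 7 tested members and 0.02 over all genes tested.

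The number of members called differed between fits, and the cause was not tested. A filter of 1 CPM in 3 libraries left Mlana out of the test, and 0 members were called. The call of Mlana was lost in 6 of the 9 fits that each left out a library, namely Tac111 replicate 1, 2 or 3, B6 replicate 1 or 2, or Tac146 replicate 3, with adjusted p of 0.0508 to 0.158 in those fits by edgeR. Without Tac146 replicate 2, a library this comparison does not contrast, edgeR called Dct, Pmel and Mlana higher in Tac111 (3 of the tested members), where 0.944% of all genes were called higher. The same 3 genes were called with only the 6 libraries of these strains, where 1.93% of all genes were called higher. Without Tac146 replicate 4, which stood apart over all genes, 1 member was called in Tac111 against B6 (Mlana, edgeR adjusted p = 0.0359) and 0 in each of the other 2 comparisons, as with it. The share of all genes called higher without it was 1.8% in Tac111 against B6, 0.173% in Tac146 against B6 and 1.55% in Tac111 against Tac146.

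**Figure D2:**
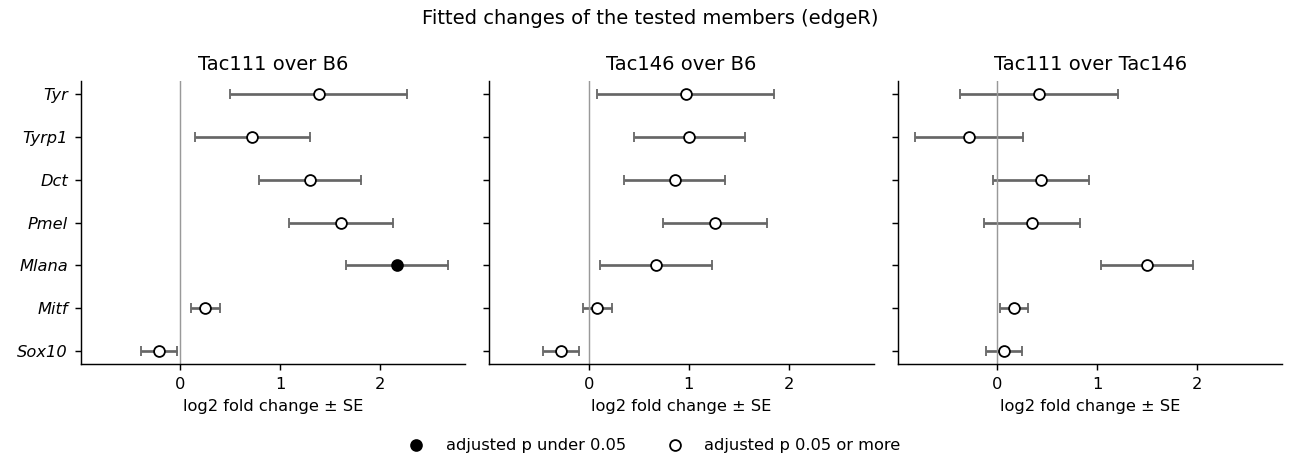
Fitted log2 fold change with its SE (horizontal axis) of the 7 tested members in the 3 comparisons, with a filled point for an adjusted p under 0.05. Only Mlana between Tac111 and B6, at 2.16, has a filled point.

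No tested member was called between Tac146 and B6. EdgeR called 0 of the 7, with 1 (Pmel) at an unadjusted p under 0.05 and 0 called by DESeq2, while 0.303% of all genes tested were called by edgeR, 0.194% higher and 0.109% lower, and 0.418% were called higher by DESeq2. All 7 overlapped between these strains, while 6.36% of all genes tested were higher and 6.29% lower with no overlap (12.7% in either direction). Pmel averaged 2.60 ± 2.27 CPM in Tac146 and 1.08 ± 0.308 CPM in B6 (SD, n = 3 each), with a log2 fold change of 1.26 (SE 0.52, edgeR adjusted p = 0.663). Tyrp1 had a log2 fold change of 1.01 (SE 0.56), Tyr 0.97 (SE 0.88), Dct 0.86 (SE 0.50) and Mlana 0.67 (SE 0.56), with edgeR adjusted p of 0.769 to 0.824. These fitted values rested on Tac146 replicate 2. Without it the log2 fold change of Tyr, Tyrp1 and Dct changed sign, to -0.67, -0.07 and -0.16, and that of Pmel was 0.23.

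Between Tac111 and Tac146, edgeR likewise called 0 of the 7 tested members, with 1 (Mlana) at an unadjusted p under 0.05 and 1 (Mlana) called by DESeq2, while 8.89% of all genes tested were called by edgeR, 2.62% higher and 6.27% lower, and 5.86% were called higher by DESeq2. With no filter on low counts edgeR called Mlana (adjusted p = 0.0406), against 2.48% of all genes called higher. Mlana averaged 0.867 ± 0.127 CPM in Tac111 and 0.297 ± 0.165 CPM in Tac146 (SD, n = 3 each), with a log2 fold change of 1.50 (SE 0.46, edgeR adjusted p = 0.0652) and no overlap of libraries, which held in that direction for 17.1% of all genes tested and in either for 35.5%. Dct had a log2 fold change of 0.44 (SE 0.48), Tyr 0.42 (SE 0.79), Pmel 0.35 (SE 0.48) and Tyrp1 -0.28 (SE 0.54), with edgeR adjusted p of 0.564 to 0.746. Here too the values rested on Tac146 replicate 2. Without it, where 3.31% of all genes were called higher, edgeR called Dct (log2 fold change 1.45, adjusted p = 0.0183), Pmel (1.38, adjusted p = 0.0183) and Mlana (2.07, adjusted p = 0.0347). The sign of Tyrp1 turned to a log2 fold change of 0.79 (edgeR adjusted p = 0.171). Replicate 2 was the highest Tac146 library for these genes, so leaving it out raised their changes. Without Tac146 replicate 3 or 4 instead, edgeR called 0 members. The log2 fold changes were then 0.10 and 0.13 for Dct and 0.03 and 0.02 for Pmel.

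The Tac146 libraries spread more widely than those of the other strains. The 7 genes known mainly from melanocytes (all members but Mc1r, Mitf and Sox10) summed to 465, 396 and 320 counts in Tac111 replicates 1, 2 and 3, to 910, 135 and 245 in Tac146 replicates 2, 3 and 4, and to 266, 116 and 144 in B6 replicates 1, 2 and 3. As summed levels these were 14.9, 14.3 and 9.30 CPM in Tac111, 20.1, 4.15 and 5.40 CPM in Tac146, and 6.35, 4.04 and 4.77 CPM in B6. Tac111 stood above B6 in every library, Tac146 replicate 2 stood above all, and the other Tac146 libraries lay within the range of B6. In Tac146 replicate 2 the levels of Tyr, Tyrp1, Dct, Pmel and Slc45a2 were 3.41 to 4.32 times those of the next Tac146 library. Mlana differed, at 2.21 times the next Tac146 library and 0.499 times the highest Tac111 library. In bulk RNA, fewer or more melanocytes and less or more RNA per melanocyte cannot be told apart.

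Hair transcripts moved with the pigment transcripts in some libraries only. The list of hair shaft and inner root sheath genes (keratins such as Krt31 and Krt71, trichohyalin and their regulators, 29 genes) summed to 6758, 5531 and 3701 CPM in Tac111 replicates 1, 2 and 3, to 3042, 1464 and 5962 CPM in Tac146 replicates 2, 3 and 4, and to 3226, 3047 and 2612 CPM in B6 replicates 1, 2 and 3. Within Tac111 the order of libraries was the same as for pigment genes. Within Tac146 it was not. There replicate 4 had the most hair transcripts with 5.40 CPM of pigment genes. Replicate 2 had the most pigment transcripts with a hair level like that of B6. In B6, replicate 1 was highest for both, but replicate 2 was above replicate 3 for hair and below it for pigment genes (4.04 and 4.77 CPM). Per 1000 CPM of hair transcripts, pigment genes stood at 2.21, 2.59 and 2.51 CPM in Tac111, 6.62, 2.83 and 0.906 CPM in Tac146, and 1.97, 1.32 and 1.83 CPM in B6. The part of hair content in the difference between Tac111 and B6 was not tested. The 20 keratin-associated protein genes of the hair shaft summed to 1101 to 1882 CPM in Tac111, 368.9 to 1923 CPM in Tac146 and 757.8 to 1009 CPM in B6. By this list Tac146 replicate 2, at 637 CPM, lay below every B6 library.

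**Figure D3:**
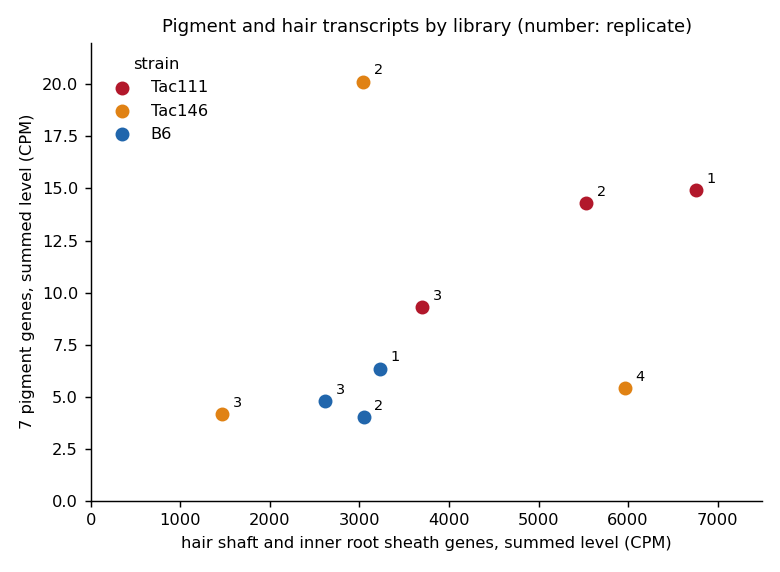
Summed level of the 7 pigment genes (vertical, CPM) against summed level of hair shaft and inner root sheath genes (horizontal, CPM) in the 9 libraries, coloured by strain and numbered by replicate. Tac146 replicate 2 has 20.1 CPM of pigment genes at 3042 CPM of hair genes, and Tac146 replicate 4 has 5.40 CPM at 5962 CPM.

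Few hair genes were called between Tac111 and B6, where 1.02% of all genes tested were called higher. The summed levels of both hair lists were nevertheless higher in every Tac111 library than in every B6 library. Of 29 tested hair shaft and inner root sheath genes, edgeR called 1 higher and 0 lower in Tac111 against B6, with a median log2 fold change of 0.86, and 0 of 19 keratin-associated genes, with a median of 0.87, while 10 and 3 had an unadjusted p under 0.05 and of all genes tested 3.81% were called and the median was 0.02. The gene called was Krt32, a keratin of the hair cuticle, at 79.1 ± 5.15 CPM in Tac111 and 49.2 ± 6.98 CPM in B6 (SD, n = 3 each), a log2 fold change of 0.69 (SE 0.16, edgeR adjusted p = 0.0405). It was also higher in Tac111 than in Tac146 (log2 fold change 0.65, SE 0.16, edgeR adjusted p = 0.0359). Krtap7-1 and Krtap8-1, the keratin-associated genes of the list with the highest mean CPM, had log2 fold changes of 0.90 and 1.03 in Tac111 against B6 (SE 0.52 and 0.54, edgeR adjusted p = 0.326 and 0.288). Between Tac146 and B6 edgeR called 0 of 29 and 0 of 19, with medians of 0.20 for both lists and 0 at an unadjusted p under 0.05 in either. Genes of follicle stem cells, outer root sheath and dermal papilla had a median log2 fold change of 0.30 in Tac111 against B6, with 0 of 16 called by edgeR and 5 at an unadjusted p under 0.05. Krt15 and Cd34, with the highest mean CPM of them, had log2 fold changes of -0.04 and -0.15 in that comparison.

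Other pigment pathway genes are to be read against the 3.81% of all genes called in Tac111 against B6, the 0.303% in Tac146 against B6 and the 8.89% in Tac111 against Tac146. Of 12 tested further genes of melanocytes (among them Kit, Ednrb, Pax3 and Trpm1), edgeR called 0 in Tac111 against B6, with a median log2 fold change of -0.05 and 2 at an unadjusted p under 0.05. Against Tac146, Slc7a11, a cystine transporter known for its part in yellow pigment, and Gpnmb, a melanosome protein also made by macrophages, were lower in Tac111 (log2 fold changes -1.05 and -0.85, SE 0.21 and 0.18, edgeR adjusted p = 0.0187 and 0.0229). The 28 genes of melanosome biogenesis and transport, most of which serve lysosome-related organelles in many cells, had medians of 0.02, 0.01 and 0.02 on the log2 scale in Tac111 against B6, Tac146 against B6 and Tac111 against Tac146. Of these, Dtnbp1, a subunit of a sorting complex of endosomes, rose in Tac111 against B6 (42.1 ± 4.73 CPM in Tac111 and 30.5 ± 2.03 CPM in B6, SD, n = 3 each, log2 fold change 0.47, edgeR adjusted p = 0.0428). Against Tac146, Dtnbp1 and Bloc1s1 were higher in Tac111, and the adaptor subunits Ap3b1 and Ap3m1 were lower (edgeR adjusted p = 0.00695, 0.0481, 0.0498 and 0.0446). Of 13 tested signals from skin and papilla to melanocytes and their downstream genes, edgeR called 0 in each of the 3 comparisons, with 2, 1 and 2 at an unadjusted p under 0.05. Ctnnb1 and Gnas, with the highest mean CPM of that list, had log2 fold changes of 0.04 and -0.16 in Tac111 against B6.

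Schwann cell genes, given here because these cells also make Sox10, were lower in Tac111 where they passed the test. Of 20 tested genes, edgeR called 4 lower (Mbp, Drp2, Cnp and Pllp) and 0 higher against B6, while 2.8% of all genes tested were called lower, and the median log2 fold change was -0.39. Mbp, a protein of myelin, stood at 118 ± 14.3 CPM in Tac111 and 188 ± 8.52 CPM in B6 (SD, n = 3 each, log2 fold change -0.67, SE 0.12, edgeR adjusted p = 0.0146). Drp2, of the myelin sheath membrane, Cnp, a myelin enzyme, and Pllp, a myelin membrane protein, had log2 fold changes of -0.70, -0.63 and -0.89 (SE 0.14, 0.13 and 0.19, edgeR adjusted p = 0.0203, 0.0231 and 0.0318). The summed level of the 21 listed genes was 755 to 799 CPM in Tac111, 729 to 958 CPM in Tac146 and 799.7 to 929.8 CPM in B6. Within Tac146 the lowest value, 729 CPM, was that of replicate 2, the library with the lowest Sox10. The part of Schwann cell content in the level of Sox10 was not tested.

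The make-up of the pigment transcripts was described as the share of each gene. Tyrp1, Pmel and Mlana were singled out after their values were seen. Dct took 44.4 to 52.6% of the summed counts of the 7 pigment genes in every library. Tyrp1 took 9.06 to 11.6% in the Tac111 libraries, 14.1 to 18.4% in the Tac146 libraries and 14.7 to 18.1% in the B6 libraries, so every Tac111 library lay below the others. Over summed counts its share was 10.8% in Tac111 (exact 95% binomial interval 9.04 to 12.7%), 16.8% in Tac146 (14.8 to 19.0%) and 16.2% in B6 (13.1 to 19.6%). Mlana took 6.02 to 7.81% in Tac111, 2.42 to 4.44% in Tac146 and 1.72 to 7.64% in B6, with B6 replicate 3 within the range of Tac111. Pmel took 24.5 to 28.1% in Tac111, 24.9 to 29.6% in Tac146 and 18.8 to 22.6% in B6. The intervals cover counting error only, and no test over libraries was made of these shares.

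**Figure D4:**
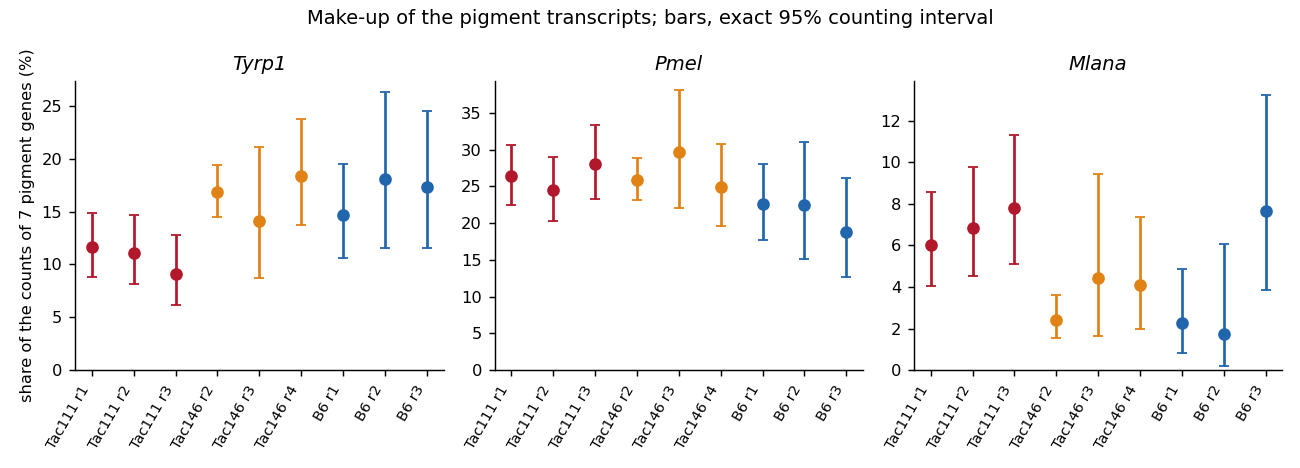
Share (%) of Tyrp1, Pmel and Mlana in the summed counts of the 7 pigment genes in each library (r, replicate), with exact 95% counting intervals. Tyrp1 is at 9.06 to 11.6% in Tac111 and at 14.1% or more in the other libraries.

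The genes whose pattern over the 9 libraries was most like that of the pigment genes were sought among 14193 other tested genes that averaged at least 1 CPM. The pattern was the mean of Tyr, Tyrp1, Dct, Pmel and Mlana, each as log2(CPM + 1) centred on its own mean, and likeness was the root mean square difference from it in log2 units. Closest were Gnmt, a glycine methyltransferase (0.154), Etv4, a transcription factor of the ETS family (0.155), 5330438D12Rik (0.166), Mybl2, a cell cycle transcription factor (0.210), and Tnn, a matrix protein (0.214). Then came Atp6v1b1, a proton pump subunit (0.217), Trpm1, a cation channel of melanocytes (0.250), Tnmd, a membrane protein of tendon (0.252), Hhip, a hedgehog-binding protein of the dermal papilla list (0.255), and Atp1b4 (0.259). The 5 genes that make up the pattern lay at 0.142 for Tyr to 0.272 for Mlana, which their part in it brings close by construction, with Mitf at 0.392 and Sox10 at 0.579, and the median of the candidates was 0.465. A flat line lay at 0.444, so Mitf was nearer to the pattern than a flat line and Sox10 farther from it. Trpm1 stood at 2.44, 1.37 and 1.45 CPM in Tac111, 2.26, 0.706 and 1.32 CPM in Tac146, and 0.692, 0.835 and 1.39 CPM in B6. None of the 10 was called by edgeR in any of the 3 comparisons, with adjusted p of 0.0680 or more.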

How the data were processed

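Labial mucosa RNA was made into libraries with a stranded, poly(A)-selecting kit, as the labels' protocols state. The submitters' processing notes name STAR, RSEM and GRCm38, without versions, annotation or strand setting. The authors deposited RSEM's expected counts per gene symbol. Lines sharing a symbol (107 names) were summed, except 27 names that looked like dates, and counts were rounded. Replicates differed beyond counting noise (chi-square per degree of freedom 14.6 to 86.4).

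The quasi-likelihood test of edgeR 4.0.16 (R 4.3.3), with TMM factors and filterByExpr, used all 9 libraries and a mean for each strain. It covered 16523 genes, and Benjamini-Hochberg adjustment ran over all of them (threshold 0.05). The SE is approximate (log2 fold change over the square root of F). CPM use TMM-scaled library sizes. The fit was tested on simulated data, with changes set only in genes of higher mean level than Mlana, Tyr and Tyrp1. Positions and exon lengths come from the GENCODE annotation of GRCm38.

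The members and gene lists were chosen with earlier results of these data known. A gene of the Schwann cell list is not reported here and was left out of that list's counts and sums. All 10 members were named. From each list up to 4 called genes with the smallest adjusted p were named, or the 2 with the highest mean CPM where none was called, and the 10 genes most like the pigment genes. The alternatives tried were other scaling (median ratio, upper quartile), DESeq2 1.42.0, limma 3.58.1 on log2(CPM + 1), no filter, a filter of 1 CPM in 3 libraries, the replicate number as a block, the 6 compared libraries alone, and leaving out each library.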

Additional observations from a re-analysis of the deposited data

How the results depend on the processing

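The number of members called in Tac111 against B6 was 1, and it was 2 both with no low-count filter and by DESeq2, 3 with only the 6 libraries compared, 0 with a filter of 1 CPM in 3 libraries, 1 with other scaling, with limma and with the replicate block, and 0 to 3 with 1 library left out. In Tac111 against Tac146 it was 0, and 1 with DESeq2, limma or no filter, and 0 to 3 with 1 library left out. In Tac146 against B6 it was 0 under every alternative run. The cause of these changes was not tested, except that the 1 CPM filter dropped Mlana.

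Over all genes, calls in Tac111 against B6 numbered 630, and 1213 with DESeq2, 1020 with no filter and 295 to 958 with 1 library left out. In Tac146 against B6 they numbered 50, and 136 with DESeq2, 129 with no filter, 26 with only the 6 libraries compared and 33 to 64 with 1 left out. In Tac111 against Tac146 they numbered 1469, and 2677 with DESeq2, 632 with the replicate block, 641 with only the 6 libraries compared and 470 to 1829 with 1 left out.

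With 1 library left out, log2 fold changes of some uncalled members took both signs. In Tac146 against B6 they ran from -0.67 to 1.49 for Tyr, -0.0702 to 1.39 for Tyrp1 and -0.16 to 1.19 for Dct, each negative only without Tac146 replicate 2, and from -0.0306 to 0.16 for Mitf, negative without B6 replicate 3. In Tac111 against Tac146 they ran from -0.66 to 0.79 for Tyrp1 and -0.0692 to 0.17 for Sox10, with the sign turned without Tac146 replicate 2, and from -0.0992 to 2.06 for Tyr, negative without Tac146 replicate 3.

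Deviations of libraries with the same replicate number correlated at -0.0893 to 0.206, so the numbers were not taken to pair libraries, and with the replicate block edgeR called Pmel (adjusted p = 0.0327) and not Mlana (adjusted p = 0.0641) in Tac111 against B6. Slc45a2, Oca2 and Mc1r, at under 20 counts in every library, were limited by depth. Mlana and Tyr also had few counts in B6, at 6, 2 and 11 for Mlana and 14, 3 and 11 for Tyr. In B6 replicate 2 Mlana, at 0.0696 CPM, lay below the limit of 0.104 CPM set by 3 counts.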

Other observations

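Markers of other cell types that share genes with melanocytes were measured in the same fit. Of all genes tested, 3.81% were called in Tac111 against B6, 0.303% in Tac146 against B6 and 8.89% in Tac111 against Tac146. Of 11 mast cell genes, which include targets of Mitf, edgeR called 0 in each of the 3 comparisons, with 0, 0 and 1 at an unadjusted p under 0.05 in Tac111 against B6, Tac146 against B6 and Tac111 against Tac146. Mcpt4 and Cma1, proteases of connective tissue mast cells, had log2 fold changes of 0.09 and 0.06 in Tac111 against B6. The mast cell list summed to 164 to 197 CPM in Tac111, 62.2 to 184 CPM in Tac146 and 149 to 195 CPM in B6, and the lowest value was that of Tac146 replicate 4. Macrophage genes had a median log2 fold change of -0.51 in Tac111 against B6 with 0 of 11 called by edgeR and 2 at an unadjusted p under 0.05. Against Tac146, Csf1r, the receptor for macrophage colony-stimulating factor, and Adgre1, the F4/80 antigen, were lower in Tac111 (log2 fold changes -0.74 and -0.83, edgeR adjusted p = 0.0424 and 0.0498). Libraries overlapped for Adgre1, with Tac146 replicate 4 at 6.24 CPM and Tac111 replicate 1 at 6.54 CPM. The summed macrophage level of Tac146 replicate 4, 192.5 CPM, was the lowest of all libraries.

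Of 15 listed salivary and mucous gland genes 7 were tested. Of these, edgeR called Aqp5, a water channel, and Elf5, a transcription factor of gland epithelium, higher in Tac111 against B6 (log2 fold changes 1.96 and 0.71, edgeR adjusted p = 0.00697 and 0.0155). Lpo, which encodes lactoperoxidase, was higher in Tac146 than in B6 (6.77 ± 1.70 CPM in Tac146 and 0.565 ± 0.374 CPM in B6, SD, n = 3 each, log2 fold change 3.51, edgeR adjusted p = 0.00467). In Tac111 against Tac146, Aqp5 was higher, and Lpo and Bhlha15, a transcription factor of secretory cells, were lower (log2 fold changes 3.73, -5.20 and -2.32). Of 12 skeletal muscle genes edgeR called 0 in each comparison, with 1, 3 and 7 at an unadjusted p under 0.05, and their summed level was lowest in Tac146 replicate 4 (18595 CPM, against 26767 to 33881 CPM in the other libraries). Of 12 oral keratinocyte genes, the desmosome genes Dsg3 and Dsp were lower in Tac111 than in Tac146 (log2 fold changes -0.87 and -0.61, edgeR adjusted p = 0.0161 and 0.0416), and 0 were called in Tac111 against B6 or Tac146 against B6, with 2 and 1 at an unadjusted p under 0.05.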
